A study of Mus musculus with 34 samples.

Results

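The epididymal fat of HF3 mice was set directly against that of HF1 mice on 2 of the 34 arrays of the series, the 2 of 22 arrays in experiment 2 whose titles pair these groups. Both groups ate a high fat diet. HF3 mice were the offspring of an HF2 generation, which was not analysed here, and HF1 mice were the offspring of HF0, the first generation on that diet. HF0 mice came in turn from mice on the normal diet (STD). The comparison therefore asks how fat of a later high-fat generation differed from fat of an early one, with the diet the same on both sides. Both extracts of experiment 2 were made with Qiagen reagents, per the labels, and the labels give neither the age nor the number of mice per extract. On array 1 HF3 RNA carried Cy5 and HF1 RNA carried Cy3, and on array 2 the dyes were swapped. The arrays hold the same pair of extracts as far as the labels say, so they count as 1 replicate. Their spread is technical, and no test was made on them alone.

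Every value below is a log2 ratio of HF3 over HF1 unless another pair is named, with array 1 before array 2. The deposited ratios do not state which dye was the numerator, so they were coded as Cy5 over Cy3. A positive value stands for more RNA in HF3 if Cy5 was the numerator and for less if Cy3 was. Signs therefore give relative directions: genes of one sign differ in the opposite way from genes of the other. Ratios carry no level, so the presence of adipocyte transcripts in the extracts could not be checked, nor could genes be ranked by abundance. In bulk tissue, fewer cells of a type and less RNA per cell cannot be told apart.

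White fat cells store triglyceride behind a coat of perilipins and CIDE proteins, make fatty acids from glucose, and secrete hormones such as leptin, adiponectin and, in mice, resistin. The epididymal depot lies against the epididymis and testis. In the testis, germ cells pass through meiosis, guard their genome with PIWI proteins, replace histones by transition proteins and then protamines, and build an acrosome and a tail. Blood, vessel wall and immune cells add their own transcripts to any extract of fat.

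Male germ cell genes led the positive side, and Il6, an inflammatory cytokine, was the most positive of the inflammatory mediators. The 150 bases before the start of 3 of these germ cell genes and of Il6 are shown because their genes stood on the same side of the ratio, and because the cyclic AMP response element is known from both testis genes and Il6. They are from RefSeq on GRCm38.p6, read 5′ to 3′ on the strand of the gene, and capitals mark the core TGACG on either strand, which is also part of the full element TGACGTCA. The intervals are chr1:73015900-73016049 on the minus strand for Tnp1, chr16:10796824-10796973 on the minus strand for Prm1, chr7:46861113-46861262 on the plus strand for Ldhc and chr5:30012964-30013113 on the plus strand for Il6.
Tnp1: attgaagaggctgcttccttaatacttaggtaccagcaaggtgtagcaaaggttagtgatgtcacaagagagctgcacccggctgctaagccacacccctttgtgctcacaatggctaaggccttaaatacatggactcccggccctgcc
Prm1: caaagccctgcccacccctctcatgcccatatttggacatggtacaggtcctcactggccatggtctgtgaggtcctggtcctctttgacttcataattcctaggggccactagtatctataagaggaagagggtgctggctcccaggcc
Ldhc: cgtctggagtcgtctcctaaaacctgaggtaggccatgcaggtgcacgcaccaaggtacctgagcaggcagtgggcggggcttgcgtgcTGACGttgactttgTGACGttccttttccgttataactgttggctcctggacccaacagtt
Il6: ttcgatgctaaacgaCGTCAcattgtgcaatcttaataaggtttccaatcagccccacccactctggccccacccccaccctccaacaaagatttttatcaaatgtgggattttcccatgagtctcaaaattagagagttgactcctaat
Ldhc held 2 such cores, 61 and 47 bases before the start, and Il6 held 1, at 135 bases. No TGACG was found in the printed windows of Tnp1 and Prm1. Only exact matches were sought, so variant forms of the element were left unmarked. Over the same window of 27025 genes in the RefSeq table, 13.5% held a core and 1.44% the full element. Of the 46 male germ cell list genes matched to that table, 13 held a core and 1 the full element. A match describes letters and is no evidence of binding.

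Of 22879 features, 10142 (44.3%) had the same sign on both arrays, 5167 of them positive and 4975 negative. The mean was positive in 11497 features and negative in 11382. The sign counts of the lists below are to be read beside these. The mean of the arrays, in which a dye effect cancels, had an SD of 0.423 over all features. The dye part, as the difference of the arrays divided by 2 is called here, loses the difference between HF3 and HF1. It keeps any dye effect together with array and position error, whose shares were not tested, and its SD was 0.395. A feature was called where both arrays had the same sign and their mean reached a size of 1. By this rule 678 features were positive (2.96% of all) and 59 were negative (0.258%). At a size of 1 or more, with no rule on signs, the dye part was positive in 481 features and negative in 100. At 2 or more and with the same sign on both arrays, the mean was positive in 156 and negative in 0 features. The dye part at that size, again with no rule on signs, was positive in 12 and negative in 7. At large sizes the positive calls thus outnumbered the values of the dye part, and the negative calls did not. The calls had to pass a rule on signs that the dye part did not, which lowers their counts beside it.

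**Figure D1:**
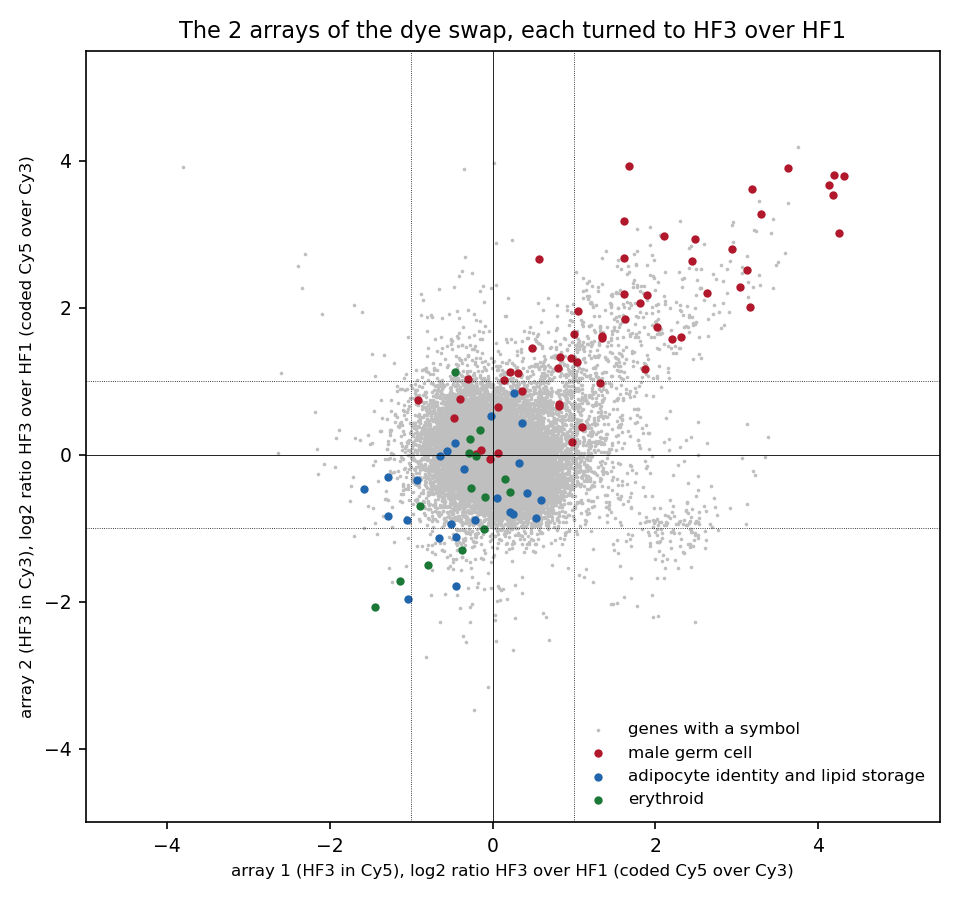
Log2 ratio of HF3 over HF1 for each gene with a symbol, on array 1 (x axis) and on array 2 (y axis), with dotted lines at sizes of 1. Male germ cell genes (red) run along the diagonal to beyond 4 on array 1, adipocyte genes (blue) and erythroid genes (green) reach the lower left, and grey points at the lower right, positive on array 1 and negative on array 2, have opposite signs on the swapped arrays.

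The same difference could be read on arrays that the rule did not use. The ratio of HF3 over HF0 minus that of HF1 over HF0 in experiment 2 gave one reading. Arrays with HF4, the high-fat offspring of HF3, gave another, all with the same extract labels. The median size of the gap to the direct value was 0.224 by the arrays with HF0 and 0.199 by those with HF4. Of the 678 positive features, 635 and 643 were positive again by the arrays with HF0 and with HF4, where 50.5% and 52.1% of all features were, and 512 and 524 reached 1 again, where 3.64% of all did on each route. Of the 59 negative features, 53 and 49 were negative again, where 49.5% and 47.9% of all features were. Of them 18 and 19 reached a size of 1 again, where 0.861% and 1.37% of all features did. Requiring a size of 1 on each direct array left 477 positive and 12 negative features. All 12 negative features kept their sign on both routes, as did 470 of the 477 by HF0 arrays and 467 by HF4 arrays. These routes share extracts with the direct arrays, so they bear on array and dye error and not on the spread between animals.

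A test needs more than 1 extract of a group. A limma fit over the group values of all 34 arrays, with experiment as a block, held HF3 from both experiments and HF1 from experiment 2 only. It called 0 of 22879 features at an adjusted p of 0.05 (0% of all), and the lowest adjusted p was 0.168. At an unadjusted p under 0.05 it listed 2086 features (9.12% of all). These held 601 of the 678 positive and 40 of the 59 negative features, but the direct arrays are part of the fit. With a robust prior it again called 0. With HF3 of experiment 2 alone and the STD extract of that experiment left out, the fit gave 866 calls, 774 positive and 92 negative, on 1 residual degree of freedom. With only that STD extract left out, an alternative chosen after seeing the data, it gave 450 calls, 431 positive and 19 negative. The values below are measurements of these extracts, and 0 genes passed the fit over all 34 arrays.

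Germ cell transcripts made up most of the top of the positive side. Of 55 male germ cell genes, all measured, 51 had a positive mean and 36 were called (65.5%, against 2.96% of all features). The list's median was 1.52, with 1.35 on array 1 and 1.62 on array 2, and 0.00 over all features. Of the 12 most positive genes, 8 belonged to this list. It was chosen with results of these data known, and its members are known from germ cells of the testis. The roles below were formed within the list after the values were seen, so their medians and counts only describe these data. Beyond the most positive genes, members were also picked to show each role after their values were seen.

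Sperm chromatin genes were the most positive of the roles, with a median of 3.10 over 4 genes, all called (background 2.96%). Tnp1, the transition protein that displaces histones in spermatids, read 4.203 on array 1 and 3.81 on array 2 (mean 4.01 ± 0.28, SD of the 2 arrays). Prm1, a protamine that then packs sperm DNA, read 3.20 and 3.62 (3.41 ± 0.30). Tnp2 read 1.67 and 3.93 and Prm2 read 3.16 and 2.01, so the gap between the arrays was wider for the second gene of each pair. All 4 were positive on both arrays.

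Among 14 genes of meiosis and the small RNA pathway, 10 were called (background 2.96%) and the median was 1.81. Mael, which represses transposons in germ cells, was the most positive gene of all with a symbol, at 4.33 and 3.80 (4.06 ± 0.37). Meig1, counted in this role though it is needed in spermatids to build the sperm tail, read 4.19 and 3.53. The role was divided. Ddx4, a germ cell helicase, read 2.95 and 2.80, Piwil1, a PIWI protein of late meiosis and spermatids, read 2.49 and 2.94, and Sycp3, of the axis of meiotic chromosomes, read 1.05 and 1.96. Stra8, which starts meiosis, read -0.14 and 0.07, and Dmc1, a recombinase of early meiosis, read -0.92 and 0.74. Those 2 genes and Sycp2 had means between -0.09 and -0.04.

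The 12 genes of the tail and of sperm energy supply had 7 calls (background 2.96%) and a median of 1.61. Ropn1l, of the fibrous sheath and radial spoke, read 3.63 and 3.90, and Ldhc, the lactate dehydrogenase of sperm, read 4.26 and 3.03. Pgk2, a sperm glycolysis enzyme, read only -0.40 and 0.76, and Akap4, a scaffold of the fibrous sheath on chromosome X, read -0.48 and 0.50. By the arrays with HF0 and with HF4, Akap4 stood at 1.53 and 2.24, against a direct mean of 0.01. The 10 genes of the acrosome and of contact with the egg had 6 calls (background 2.96%) and a median of 1.11. Crisp2, of the acrosome and tail, read 2.10 and 2.97. The remaining 15 genes had 9 calls (background 2.96%) and a median of 1.49. They were led by Pdcl2 at 4.14 and 3.68 and by Spata4 at 3.31 and 3.27.

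The other 4 of the 12 most positive genes were outside the list. Clec2m, a C-type lectin, read 3.76 and 4.196. Adam3, a sperm surface protein needed to reach the egg in mice, read 3.63 and 3.43. Shcbp1l, a testis protein of the meiotic spindle, read 3.45 and 3.22, and 4930408G06Rik read 3.28 and 3.46. The limma fit gave Mael 3.93 ± 0.73 (SE) with an adjusted p of 0.243 and Tnp1 4.04 ± 1.10 with an adjusted p of 0.338.

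**Figure D2:**
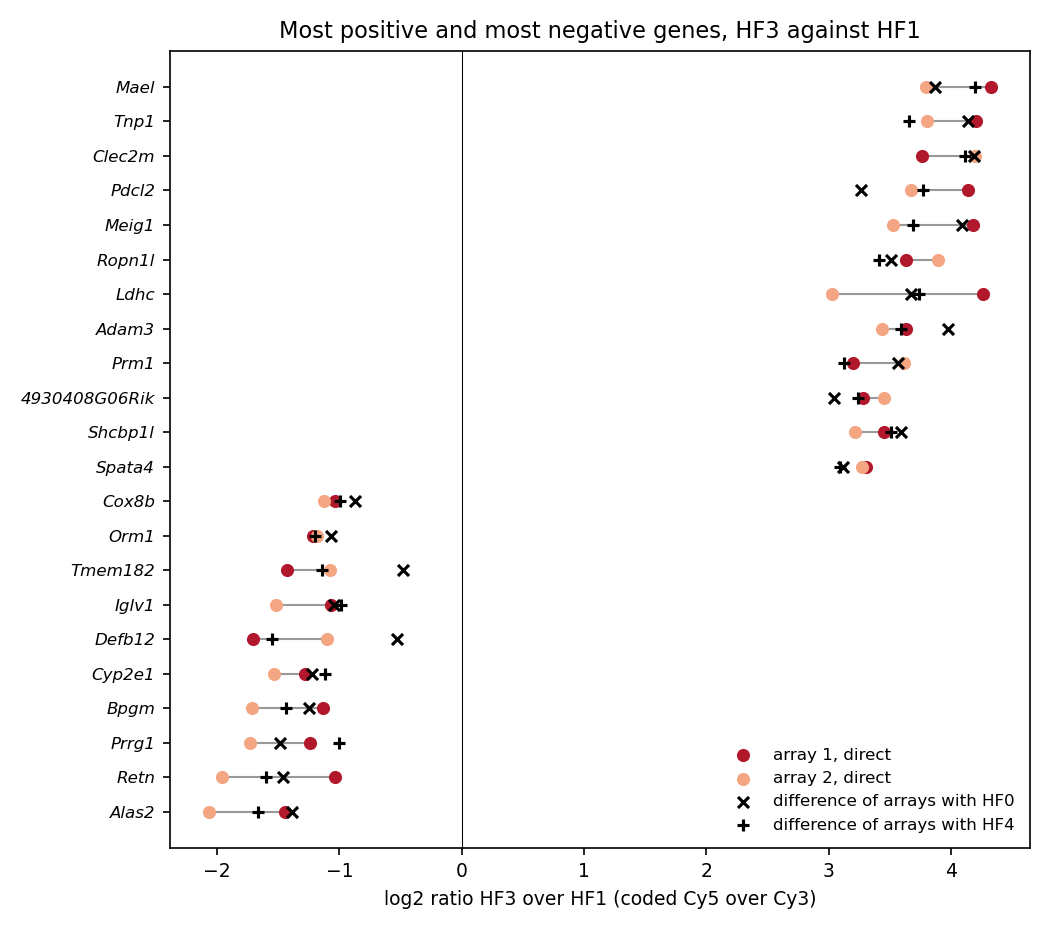
Log2 ratio of HF3 over HF1 for the 12 most positive and the 10 negative genes past a size of 1 on both arrays, with array 1 (dark red), array 2 (light red) and the same difference read through HF0 (crosses) and HF4 (pluses). The positive genes lie between 3.03 and 4.33 on both direct arrays and the negative ones between -2.07 and -1.03. Tmem182 and Defb12 sit nearer 0 through HF0.

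Against HF0, the germ cell genes were apart in HF3 and near 0 in HF1. The list's median over HF0 in experiment 2 was 1.52 in HF3 and -0.05 in HF1, and HF3 of experiment 1 stood at 2.38 over its own HF0. Tnp1 stood at 4.15 over HF0 in HF3 and at 0.01 in HF1. HF3-REV and HF1-REV mice had the parents of HF3 and of HF1 and ate the normal diet. The list's medians were 1.49 for HF3 over HF3-REV and 0.20 for HF1 over HF1-REV. For the sperm chromatin role they were 3.42 and 1.91. The other roles had medians from 0.12 to 0.38 for HF1 over HF1-REV. Tnp1 stood at 3.90 for HF3 over HF3-REV and at 1.51 for HF1 over HF1-REV, and Crisp2 at 3.17 and 3.71. Of 432 positive genes with a size of 1 on both direct arrays, 366 were apart from HF0 by 0.5 or more in HF3 alone, 11 in HF1 alone, 47 in both and 8 in neither. Over all 18617 genes with a symbol, 11.7% were so in HF3 alone, 9.81% in HF1 alone, 6.93% in both and 71.6% in neither. The 432 were picked for a gap between HF3 and HF1. A low count in neither follows largely from that choice. The choice does not fix the split between HF3 alone and HF1 alone, but the same HF3 and HF1 extracts stand behind both readings. The split is therefore a description of these extracts. The 31 measured genes of 41 on the epididymis epithelium list had a median of -0.13, with 2 positive calls (background 2.96%), Defb22 at 1.39 and Ptgds at 1.03, and 1 negative call (background 0.258%), Defb12 at -1.41. The list's median over HF0 was 0.38 in HF3 and 0.21 in HF1. Lcn5, an epididymal lipocalin, had a direct mean of -0.82 and stood at 2.60 over HF0 in HF3 and at 2.91 in HF1. Defb12, an epididymal defensin, stood at 1.55 in HF3 and at 2.09 in HF1, and Cuzd1, with a direct mean of 0.98, at 1.30 in HF3 and at 0.05 in HF1. Markers of Sertoli cells, Leydig cells and accessory glands had a median of 0.19 over 20 genes, with 1 call (background 2.96%). It was Cyp17a1 of androgen synthesis, at 1.40 and 0.89. The part of germ cells or of tissue taken with the fat in the other results was not tested.

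**Figure D3:**
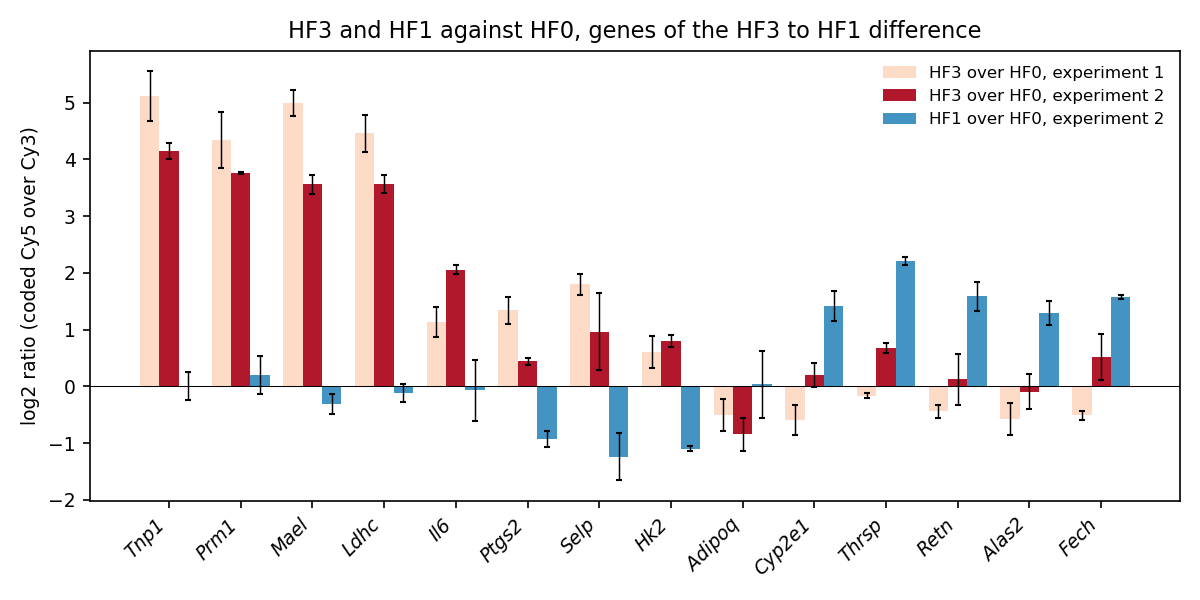
Log2 ratio over HF0 of 14 genes in HF3 of experiment 1 (pale), HF3 of experiment 2 (red) and HF1 of experiment 2 (blue). Bars are the mean of a dye swap and whiskers span its 2 arrays. Germ cell genes are positive in both HF3 extracts, while Thrsp, Retn, Alas2, Cyp2e1 and Fech stand between 1.29 and 2.21 in HF1.

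On the opposite side stood hormones and lipid genes of the fat cell. Of 25 measured genes of adipocyte identity and lipid storage, 21 had a negative mean, 13 were negative on both arrays and 4 were called negative (background 0.258%). The list's median was -0.28, with -0.45 on array 1 and -0.58 on array 2. Retn, the hormone resistin, read -1.03 and -1.96 (-1.50 ± 0.65). Adipoq, the hormone adiponectin, read -1.29 and -0.83 (-1.06 ± 0.33). Both hormones were negative on both arrays, and so was Lep, leptin, which missed the call at -1.29 and -0.29. Another 2 proteins of the lipid droplet were also called: Cidec, which fuses droplets, read -0.45 and -1.78, and Plin4, a perilipin, read -1.58 and -0.46. Pparg, the master regulator of fat cell formation, read -0.56 and 0.05.

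Genes of fatty acid synthesis followed in part. Of 20 measured lipogenesis genes, 14 had a negative mean and 2 were called negative (background 0.258%). The median was -0.28, with -0.08 on array 1 and -0.26 on array 2, and -0.14 by the arrays with HF0. Thrsp, which drives lipogenesis and responds to thyroid hormone and carbohydrate, read -1.58 and -0.99 (-1.28 ± 0.41). Acly, which makes cytosolic acetyl-CoA, read -0.40 and -2.08, and its value of -0.55 by arrays with HF0 turned to 0.47 by arrays with HF4. Scd1, the stearoyl-CoA desaturase, read -0.18 and -1.74, and Fasn, the fatty acid synthase, read -0.49 and -0.23, neither called. The fit put Retn at -1.54 ± 0.15 (SE, adjusted p 0.203) and Thrsp at -1.55 ± 0.24 (adjusted p 0.235).

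Genes known to follow the growth of fat mass did not move as one. The 11 measured had a median of 0.07, but it was -0.36 on array 1, -0.04 on array 2, and -0.21 and -0.235 by the arrays with HF0 and HF4. Mest, an imprinted gene of fat expansion, read -0.37 and -0.81, Npr3, the natriuretic peptide clearance receptor, had a mean of -0.65, and Sfrp4, a secreted Wnt inhibitor, read 1.37 and 0.23. None of the 11 was called. Oxidative phosphorylation genes had a median of -0.22, with -0.02 on array 1 and -0.38 on array 2, and 0 of 28 called. Among 12 thermogenic genes only Cox8b, a cytochrome oxidase subunit of muscle and brown fat, was called (background 0.258%), at -1.04 and -1.13. Ucp1, the uncoupling protein of brown fat, read -1.21 and 0.21.

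Red blood cell genes gave the most negative value of all genes past 1 on both arrays. Alas2, the first enzyme of haem synthesis in red cells, read -1.45 and -2.07 (-1.76 ± 0.44). Bpgm, the enzyme of 2,3-bisphosphoglycerate, read -1.13 and -1.72, and Fech, the last enzyme of haem synthesis, read -0.79 and -1.50. Of 15 measured erythroid genes of 26, 13 had a negative mean, 9 were negative on both arrays and these 3 were called (background 0.258%), with a median of -0.33. Haemoglobin genes stood on the same side, with Hba-a1 at -0.38 and -1.30. Of the early erythroid factors, named after their values were seen, Klf1 read -0.21 and -0.01 and Gata1 read -0.28 and 0.22. The part of blood left in the tissue was not tested.

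The negative genes were apart from HF0 mostly in HF1. Of the 10 negative genes past 1 on both arrays, 0 differed from HF0 by 0.5 or more in HF3 alone, 8 in HF1 alone and 2 in both. Over all genes with a symbol the shares were 11.7%, 9.81% and 6.93%, as given above. These 10 were also picked for a gap between HF3 and HF1, so lying apart from HF0 in at least 1 group follows largely from that choice. Retn stood at 0.13 over HF0 in HF3 and at 1.59 in HF1. Alas2 stood at -0.10 in HF3 and at 1.29 in HF1, and Thrsp at 0.67 in HF3 and at 2.21 in HF1. In experiment 1, where RNA was extracted with Trizol, HF3 stood at -0.44 over HF0 for Retn and at -0.57 for Alas2. Adipoq was the other way round, at -0.85 over HF0 in HF3 and at 0.03 in HF1.

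The remaining negative genes past 1 on both arrays came from several sources. Cyp2e1, a cytochrome P450 made in liver and fat cells, read -1.28 and -1.53 (-1.41 ± 0.18) and stood at 0.20 over HF0 in HF3 and at 1.42 in HF1. Prrg1, a transmembrane Gla protein, read -1.24 and -1.73. Orm1, an acute phase protein, read -1.21 and -1.18, and Iglv1, an antibody light chain segment, read -1.07 and -1.52. Tmem182, a membrane protein of muscle and fat, read -1.43 and -1.08 but only -0.48 by the arrays with HF0. Defb12 read -1.71 and -1.10 and -0.53 by those arrays.

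Inflammatory mediators were divided. The list's median was 0.14 over 29 measured genes, with 0.41 on array 1 and -0.12 on array 2. The 3 calls were all positive (background 2.96%). Il6, the cytokine interleukin 6, read 2.01 and 2.04 (2.02 ± 0.02), and the arrays with HF0 and HF4 gave 2.12 and 2.07. It stood at 2.05 over HF0 in HF3 and at -0.07 in HF1. HF3 of experiment 1 stood at 1.13 over HF0, and the fit gave 1.47 ± 0.86 (SE) with an adjusted p of 0.72. Ptgs2, cyclooxygenase 2 of prostaglandin synthesis, read 1.26 and 1.68, and Cxcl10, a chemokine induced by interferon, read 0.84 and 1.25. Tnf and Ccl2, the cytokine and chemokine often measured in obese fat, had means of -0.39 and 0.09 and were not called.

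Macrophage markers lay on the negative side without a call. Of 33 measured, 29 had a negative mean and 19 were negative on both arrays, with a median of -0.29 (-0.12 on array 1 and -0.42 on array 2). Adgre1, a surface marker of mouse macrophages, read -0.74 and -0.51 and Mmp12, macrophage elastase, read -0.68 and -0.77. All 18 antigen presentation genes had a negative mean, yet their median was 0.10 on array 1 and -0.60 on array 2, so the direction rested on array 2. Interferon response genes had the same split, 0.05 and -0.50, with 2 negative calls of 29 (background 0.258%), Rsad2, an antiviral enzyme, at -0.70 and -1.35, and Bst2, tetherin, at -0.49 and -1.55. Mast cell markers lay on the positive side, with a median of 0.47 over 8 measured genes and no call, led by Hdc, which makes histamine, at 0.94 and 1.01.

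Vessel genes were negative as a list, and their one call was on the other side. Of 26 endothelial genes, 21 had a negative mean, 13 were negative on both arrays, and the median was -0.40 (-0.20 on array 1 and -0.72 on array 2). By the arrays with HF0 and HF4 it was only -0.10 and -0.22. Gpihbp1, which anchors lipoprotein lipase in capillaries, read -0.49 and -1.46. Selp, P-selectin, which catches leukocytes at the vessel wall and is also in platelets, was that call (background 2.96%). It read 2.57 and 1.32 (1.95 ± 0.88). It stood at 0.97 over HF0 in HF3 and at -1.24 in HF1, and the fit gave 2.10 ± 0.36 (SE, adjusted p 0.243).

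Glucose uptake and fast-response genes added single positive members. Hk2, the hexokinase of insulin-sensitive tissue, read 1.37 and 1.62 (1.49 ± 0.18). It was the only call among 20 insulin signalling genes (background 2.96%), whose median was 0.07. It stood at 0.80 over HF0 in HF3 and at -1.10 in HF1, so both extracts were apart from HF0 in opposite ways. The fit gave it 1.62 ± 0.17 (SE) with an adjusted p of 0.203. Immediate early genes had a median of 0.32 over 27 genes (0.49 on array 1 and -0.00 on array 2) and 2 positive calls (background 2.96%), Myc, a growth transcription factor, at 1.59 and 0.47 and Nr4a2, an orphan nuclear receptor, at 1.03 and 1.02. Among 19 clock genes the one call (background 2.96%) was Bhlhe40, a repressor in the clock, at 1.53 and 0.76. Dbp, a clock output factor, read 0.32 and 0.53. Stromal and preadipocyte markers had 2 positive calls of 16 (background 2.96%), Icam1, an adhesion molecule, at 1.21 and 0.82 and Klf5, a factor of early fat cell formation, at 0.42 and 1.60.

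Matrix and stress genes stayed close to 0 as lists. The 33 measured extracellular matrix genes had a median of -0.00 and 0 calls, and the arrays lay on either side at 0.27 and -0.21. Among 21 matrix proteases and inhibitors, with a median of 0.08 and 0 calls, Adamts1 and Adamts4, enzymes that cut proteoglycans, had means of 0.98 and 0.95, just under the size for a call. Adamts4 read 0.97 and 0.94, and Plat, tissue plasminogen activator, read 1.04 and 0.64. The 18 heat shock genes had a median of -0.07 and 0 calls. Bag3, a partner of Hsp70, read 0.71 and 0.64 among them, and stood at 0.10 over HF0 in HF3 and at -1.17 in HF1. The 18 cholesterol synthesis genes had a median of -0.08 and 0 calls, and the 22 genes of beta oxidation had a median of -0.15 and 0 calls, with 0.13 on array 1 and -0.32 on array 2.

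Cell division genes leaned to the negative side. Of 21 measured, 16 had a negative mean and 12 were negative on both arrays, with a median of -0.23 and 0 calls. Ccna2, cyclin A2 of DNA replication and mitosis, read -0.45 and -1.42, and Mki67, a protein of dividing cells, read -0.63 and -0.71. Hypoxia and glycolysis genes had a median of 0.04 over 23 genes, and Hk2 was their only call (background 2.96%). Vegfa, which drives vessel growth, read 1.07 and 0.16, and Slc2a1, the basal glucose transporter, read 1.02 and 0.21. Both were positive on both arrays and larger on array 1, where HF3 carried Cy5.

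Acute phase and leukocyte lists held single genes. Of 13 acute phase genes, 11 had a positive mean, with a median of 0.28, yet Orm1 was the only call and was negative (background 0.258%). Lcn2, a siderophore-binding lipocalin, read 1.39 and 0.24. Of 14 measured neutrophil genes of 18, the one call (background 0.258%) was Retnlg, a resistin-like secreted protein, at -0.86 and -1.23. The 18 T cell and NK cell genes and the 13 B cell genes had medians of 0.04 and 0.03 and 0 calls. Of 19 skeletal muscle genes, 2 were called positive (background 2.96%), Acta1, skeletal actin, at 0.53 and 1.57, and Tcap, telethonin of the muscle Z disc, at 1.74 and 0.63. Tcap became -0.77 by the arrays with HF0, so its sign was not stable. The 14 mesothelial genes, markers of the lining of the fat pad, had a median of 0.22 and 0 calls, with 0.42 on array 1 and -0.07 on array 2.

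**Figure D4:**
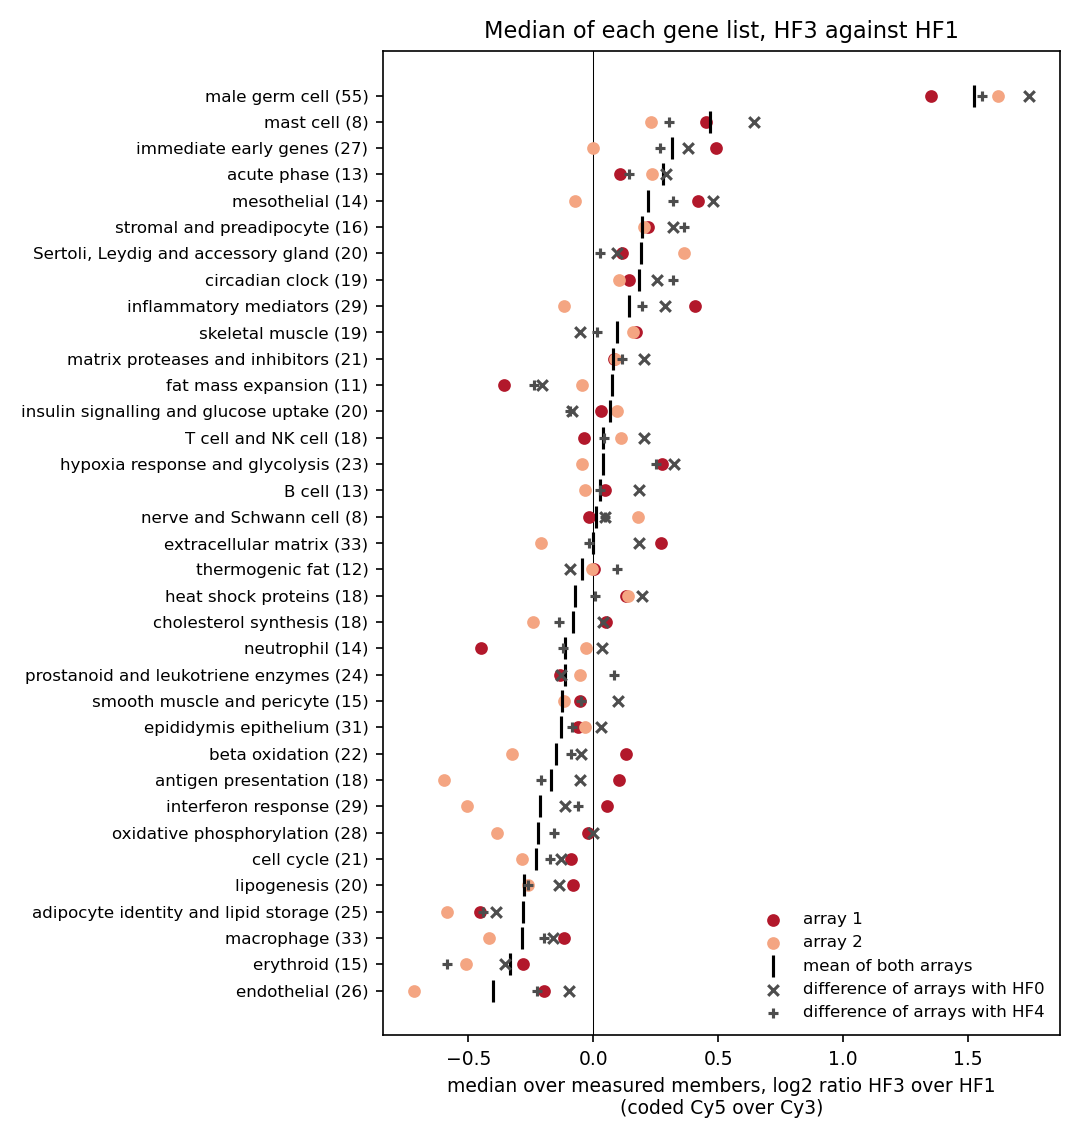
Median log2 ratio of HF3 over HF1 over the measured members (numbers in brackets) of 35 gene and marker lists, for array 1 (dark red), array 2 (light red), the mean of both (bar) and the readings through HF0 (crosses) and HF4 (pluses). The male germ cell list stands alone at 1.52, the other medians lie between -0.40 and 0.47, and the arrays straddle 0 for lists such as antigen presentation.

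Over the 35 lists, 17 medians were positive, and the number was 12 to 21 when array 1 or array 2 was left out. In the mean of both arrays, only the male germ cell list had a median beyond 0.5 in size.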

How the data were processed

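The deposited table gives 1 log2 ratio for each of 25344 probes on each array. The sources used here do not say how the authors corrected background or normalized. Base 2 was taken because base 10 would exceed the range of 16-bit scans, but a natural log was not settled, so no folds are given. Array medians ran from -0.062 to 0.046. No intensities were used, so dim spots stayed in. Precision is limited by the number of arrays. Each array was centred on its median, turned to HF3 over HF1 and averaged with its dye swap. Probes were named by platform annotation updated by gene ID (21082 with 1 symbol, 30 with several, 4232 with none) and averaged per gene, giving 22879 features, 18617 with a symbol. Of these, 1668 genes had more than 1 probe.

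The fit used limma 3.58.1 in R 4.3.3 on 12 group values with experiment as a block, with Benjamini-Hochberg adjustment, 3 residual and 3.16 prior degrees of freedom. HF1 had n = 1 and was assumed to vary like the others. The p-values measure the spread between extracts, which may be technical. The fit was also run on simulated data with independent, normal extract errors. That run does not say how the fit behaves on these extracts. Python 3.11.15, numpy 2.4.6, pandas 2.3.3 and matplotlib 3.10.9 did the rest.

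Named genes are the 12 most extreme per direction past 1 on both arrays (10 negative) and the 4 largest of each list. A fixed set was added, with genes of fat, immune cells, red cells, the clock, male germ cells and the epididymis. Members and lists were chosen with earlier results of these data known. The alternatives were other normalizations, probe summaries, routes, sizes and left-out arrays.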

Additional observations from a re-analysis of the deposited data

How the results depend on the processing

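Both direct arrays together gave 678 positive and 59 negative calls. With array 1 or array 2 left out, the counts ran from 968 to 1515 positive and from 191 to 475 negative. Those counts rest on size alone, because no second array was left to match in sign. Quantile normalization between all arrays gave 489 positive and 188 negative calls, so the split depended on the scaling. By size alone, without the rule on signs, the negative count was 27 by least squares over the 12 arrays of experiment 2. It was 197 by the arrays with HF0 and 314 by those with HF4, again by size alone. These counts used a looser rule than the 59 calls. Asking a size of 1 of both arrays left 12 negative features. A mean size of 1.5 left 332 positive and 7 negative features. The limma fit called 0 features under scale and quantile normalization, the robust prior and each left-out array. It called 866 (774 positive, 92 negative) with HF3 of experiment 2 alone and the STD extract of that experiment left out, on 1 residual degree of freedom, and 450 with only that extract left out; the cause was not tested.

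Of the 47 called among the 156 named genes, 2 took another sign under at least 1 of 9 alternatives, as did 28 of the 109 not called. Acly became 0.47 by the arrays with HF4, and Tcap, a muscle gene with a mean of 1.18, became -0.77 by the arrays with HF0 and -0.23 by those with HF4. Of 35 list medians, 21 took another sign under at least 1 of them, fat mass expansion under 6; those of the male germ cell, adipocyte, lipogenesis, erythroid, endothelial and macrophage lists did not. No paired analysis was possible because the labels give no replicate numbers and the dye swap is a single pair of extracts.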

Other observations

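Genes positive past 1 on both direct arrays, with a ratio of HF1 over HF0 at -1 or below, numbered 12. This group was formed after the values were seen. Besides Selp and Hk2 they held Has1, which makes hyaluronan, at 1.49 and 1.70, Fosl1, a partner of Jun proteins, at 1.64 and 1.47, Rasd1, a small G protein induced by glucocorticoid, at 1.91 and 1.07, Arg1, arginase of alternatively activated macrophages, with a mean of 1.40, and Procr, the protein C receptor, at 1.04 and 1.40. Has1 stood at 0.58 over HF0 in HF3 and at -1.34 in HF1. Arg1 stood at -0.05 over HF0 in HF3 and at -1.42 in HF1. The others were Hspa2, Defb38, Oscp1, Bsph2 and Stat4.

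Of 617 genes on chromosome X, 12 were called positive (1.94%), against 587 of 17677 on the 19 autosomes (3.32%, and from 1.87% to 4.43% over single autosomes). The share was chosen after the values were seen and has no test.

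A block of 1000 probes numbered 13001 to 14000 held 221 of the 544 probes, taken before averaging per gene, whose dye part was 1 or more on the positive side, and 2 of the 115 at -1 or below. The 221 were 22.1% of the block, against 0.2% to 3.78% of other blocks. It held 1 of the 22 most extreme genes. The numbers are the order of the probes in the table, and their place on the slide was not used here. Among the calls some rested on 1 array. Cnga1 read -0.22 and -3.47, with 0.35 by the arrays with HF0, and Plch2 read 0.01 and 3.97, with -0.43 by those arrays.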
